A study of Mus musculus with 594 samples.

Results

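BRD8451 is a small molecule that the labels give by code name only, at 10 µM, and its 18 arrays are compared here with DMSO, the solvent all compounds were dissolved in. The arrays were found by that name in the sample titles and make up 18 of the 594 arrays of a screen of small molecules. Both lines of the screen are cell lines from mouse islet tumours. αTC1 is a producer of glucagon, the hormone of alpha cells, and βTC3 of insulin, the hormone of beta cells. Each was seeded 24 h before compound was added and lysed after 1, 6 or 24 h. RNA was labelled and hybridised to Affymetrix HT arrays, with 3 BRD8451 arrays for each line and time. The DMSO groups held 14 αTC1 arrays at each time, and 12, 10 and 12 βTC3 arrays at 1, 6 and 24 h. BRD5298 and BRD9773, a pair of other code-named compounds of the screen at the same dose, had 18 arrays each and serve as direct comparisons. All groups share the low-glucose medium with serum and the DMSO, and each line is a single culture line that grew from a tumour driven by a viral T antigen, so neither stands for normal islet cells.

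The screen was built around compounds that act on chromatin-modifying enzymes. Such enzymes add or remove chemical groups on histones, and inhibiting them shifts the activity of many genes over hours. Cells also answer small molecules with general programs. Short supply of amino acids or a loaded endoplasmic reticulum raises the transcription factor ATF4, which turns on genes for amino acid synthesis and uptake, and reactive compounds raise enzymes that conjugate or reduce them.

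Values are log2 of the authors' intensities, each gene by 1 probe set, and a change is BRD8451 minus DMSO on that scale with its standard error (SE) from limma with batch as a term. A gene was called at a Benjamini-Hochberg adjusted p under 0.05 over 11807 genes, and only called genes are said to have risen or fallen. The number of arrays limits the precision. The lines matched their labels. At 24 h the glucagon gene Gcg lay at 12.39, 12.29 and 12.45 in αTC1 with BRD8451, against 11.9 to 12.74 with DMSO. The insulin gene Ins2 lay at 13.25, 13.48 and 13.2 in βTC3 with BRD8451, against 13.02 to 13.36 with DMSO, and at 3.37 to 5.78 in αTC1 with DMSO. βTC3 also held some Gcg, 6.18 to 10.43 with DMSO. Array medians differed little (4.363 to 4.729 over the series). At 6 h in αTC1, BRD8451 replicates 1 and 2 shared an array plate with DMSO replicate 4 and correlated on average at 0.9877 and 0.9881 with the DMSO arrays, while replicate 3, on another plate, correlated at 0.9933. DMSO replicate 4 correlated at 0.988 with the other DMSO arrays, and the lowest value, 0.9856, was that of DMSO replicate 1 on plate 5. The count of called genes at that time is given with and without BRD8451 replicate 3 or DMSO replicate 4. Other values of that time are from all arrays unless said otherwise.

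The first question was when and in which line BRD8451 changed expression. Nearly all called genes appeared at 24 h, with more called in βTC3 than in αTC1. That order turned round when only BRD8451 and DMSO arrays of the batches that hold BRD8451 were fitted (88 in αTC1, 16 in βTC3). Such a fit holds fewer DMSO arrays and has less power, so its counts do not settle which line changed more. In it limma gave an unadjusted p under 0.05 to 1302 genes in αTC1 and 1249 in βTC3. In βTC3 at 24 h, 310 genes were called (2.63% of those tested), of which 157 rose (1.33%) and 153 fell (1.3%). Most changes were small, with 16 rises and 1 fall of at least 2-fold. In αTC1 at 24 h, 31 genes were called (0.263%), of which 24 rose (0.203%), 8 of them at least 2-fold, and 7 fell (0.0593%). At 6 h, 2 genes were called in βTC3 (0.0169%), both higher. At 6 h in αTC1 limma called 0 genes (0%), with a smallest adjusted p of 0.11. An unadjusted p under 0.05 was reached by 1874 genes there, where 590 would be expected with nothing changed. At 1 h limma called 0 genes (0%) in either line. An unadjusted p under 0.05 was reached by 419 genes in αTC1 and by 630 in βTC3, against the same 590 expected.

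**Figure D1:**
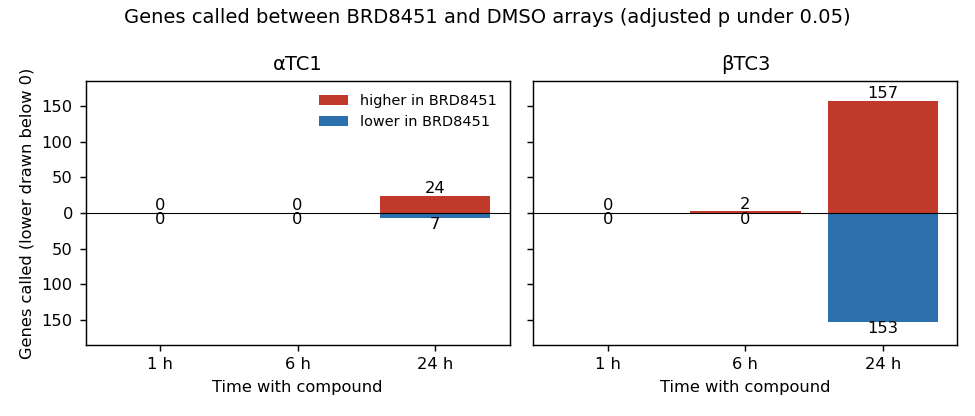
Genes called between BRD8451 and DMSO arrays at 1, 6 and 24 h in αTC1 (left) and βTC3 (right); the vertical axis is the number of genes, higher in BRD8451 drawn above 0 and lower below it. The 157 rises and 153 falls of βTC3 at 24 h exceed the 24 rises and 7 falls of αTC1.

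These counts changed when single arrays were left out, which also lowers power, and with the way of fitting. In αTC1 at 24 h the count was 3, 9 and 6 without BRD8451 replicate 1, 2 or 3, and 20 without DMSO replicate 9. It was 104 when only BRD8451 and DMSO arrays were fitted, 88 with only the batches that hold BRD8451, and 66 with array plate as a random block. In βTC3 at 24 h it was 151, 164 and 204 without BRD8451 replicate 1, 2 or 3. It was 16, of which 15 were among the 310, when only BRD8451 and DMSO arrays of the batches that hold BRD8451 were fitted. In that smaller fit 68 of 105 gene values followed for βTC3 lost the call and 0 reversed. A call lost there, here or below, does not show that the gene was unchanged. At 6 h in αTC1 it was 544 without BRD8451 replicate 3 (176 higher, 368 lower) and 116 without DMSO replicate 4 (53 higher, 63 lower). With array plate as a random block those 2 counts were 2 and 0, and 0 with all arrays. At 1 h in βTC3 it was 1 without replicate 1.

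In βTC3 the earliest called changes, at 6 h, were in Trib3 and Eif4ebp1. Trib3, a pseudokinase gene turned on by ATF4, had log2 intensities of 5.95, 5.91 and 7.34 with BRD8451 at 6 h, against 4.81 to 5.57 with DMSO (median 5.18). All 3 arrays lay above every DMSO array (0.466% of all genes did not overlap between the groups, in either direction), and the change was 1.12 ± 0.17 (SE), or 2.18-fold (adjusted p = 0.000118). Eif4ebp1, which codes for a repressor of cap-dependent translation, lay at 7.49, 7.18 and 7.86 with BRD8451, against 6.7 to 7.16 with DMSO. Its change was 0.63 ± 0.12 (adjusted p = 0.0155), again with no overlap. Both calls hung on few arrays: 0 genes were called at 6 h without BRD8451 replicate 3, the highest for both, and 1 without replicate 1 or without DMSO replicate 2. With only BRD8451 and DMSO arrays, or only those of BRD8451's batches, 0 genes were called at 6 h. At 1 h the Trib3 change was -0.08 in βTC3, not called.

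By 24 h other genes known to respond to amino acid stress had also risen in βTC3. Chac1, which breaks down glutathione and is a known ATF4 target, lay at 8.63, 9.1 and 9.37 with BRD8451, against 7.2 to 9.26 with DMSO (median 7.8). Only replicate 3 passed the highest DMSO array, and the change was 0.88 ± 0.17 (adjusted p = 0.00073). Nupr1, a small stress-induced chromatin protein gene, lay at 6.3, 7.08 and 7.86 with BRD8451, against 5.09 to 6.78 with DMSO (median 5.78), and changed by 1.29 ± 0.25 (adjusted p = 0.000655). Here replicate 1 fell inside the DMSO range and the other 2 above it. Trib3 lay at 5.94, 6.69 and 8.01, against 5.25 to 7.0 with DMSO (median 5.69), with a change of 0.77 ± 0.22 (adjusted p = 0.0387). Eif4ebp1 changed by 0.74 ± 0.16 (adjusted p = 0.00254).

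Genes that supply amino acids also changed. Slc7a3, a transporter of cationic amino acids, lay at 7.21, 7.74 and 8.12 with BRD8451 at 24 h, against 5.88 to 7.15 with DMSO (median 6.36). The groups did not overlap, and the change was 1.06 ± 0.19 (adjusted p = 0.00024), but within its own batch replicate 1 differed from DMSO by 0.07 and the others by 1.42 and 1.38. Cth, the enzyme that makes cysteine from cystathionine, lay at 4.79, 5.16 and 5.6, against 3.37 to 4.52 with DMSO, and changed by 0.86 ± 0.19 (adjusted p = 0.00413). The serine synthesis enzymes Phgdh and Psat1 changed by 0.69 ± 0.14 (adjusted p = 0.00167) and 0.46 ± 0.11 (adjusted p = 0.0091). Asns, asparagine synthetase, lay at 10.87, 11.1 and 11.15, against 10.32 to 10.85 with DMSO, a change of 0.38 ± 0.088 (adjusted p = 0.00594). Shmt2, the mitochondrial serine hydroxymethyltransferase, changed by 0.62 (adjusted p = 0.000605), and Lars, the leucyl-tRNA synthetase, by 0.45 (adjusted p = 0.00447). The glutamine carrier Slc38a2 went the other way: it lay at 9.77, 9.25 and 9.76 with BRD8451, against 9.64 to 10.81 with DMSO (-0.61 ± 0.13, adjusted p = 0.00303).

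Of 17 measured genes on the list of endoplasmic reticulum and amino acid stress, 5 rose and 0 fell in βTC3 at 24 h. Over all genes 1.33% rose and 1.3% fell. The list's median change was 0.03, against -0.005 over all genes. The 5 were Asns, Chac1, Phgdh, Psat1 and Trib3. Of 17 measured genes on a list of serine, cysteine and amino acid supply, put together after values were seen, 9 rose and 1 fell, with a median of 0.40. Without BRD8451 replicate 3 the calls of Trib3, Nupr1, Eif4ebp1, Slc7a3, Cth, Phgdh, Psat1 and Asns were lost and those of Chac1, Shmt2 and Lars held, and with the arrays of BRD8451's batches alone none of these 11 was called. In these βTC3 arrays at 24 h the Actb probe sets for the transcript's 3′ end exceeded those for its 5′ end by 4.81 to 5.04 with BRD8451, against 4.03 to 4.98 (median 4.37) with DMSO. At 6 h in βTC3 the same difference was on the low side with BRD8451, 4.3 to 4.42, against 3.57 to 5.37 (median 4.81) with DMSO. This measure of RNA length thus differed between the groups behind the βTC3 results at both times. Its part in them was not tested.

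In αTC1 none of the 17 listed stress genes was called at 24 h, among them Trib3 (0.69, adjusted p = 0.425) and Chac1 (0.16, adjusted p = 0.967). With 0.263% of all genes called there, 0 of 17 does not set the list apart. Nupr1 (0.94, adjusted p = 0.163) and Slc7a3 (0.61, adjusted p = 0.183), of the supply list, were not called either. At 6 h the αTC1 changes were 0.51 for Trib3 and 0.56 for Chac1, both at an adjusted p of 0.122. Without BRD8451 replicate 3 they were 0.61 (adjusted p = 0.0356) and 0.64 (adjusted p = 0.0307), and with array plate as a random block as well the adjusted p was 0.622 and 0.674. Trib3 lay at 6.91, 6.19 and 7.09 in αTC1 with BRD8451 at 24 h, inside the DMSO range of 4.89 to 7.33.

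**Figure D2:**
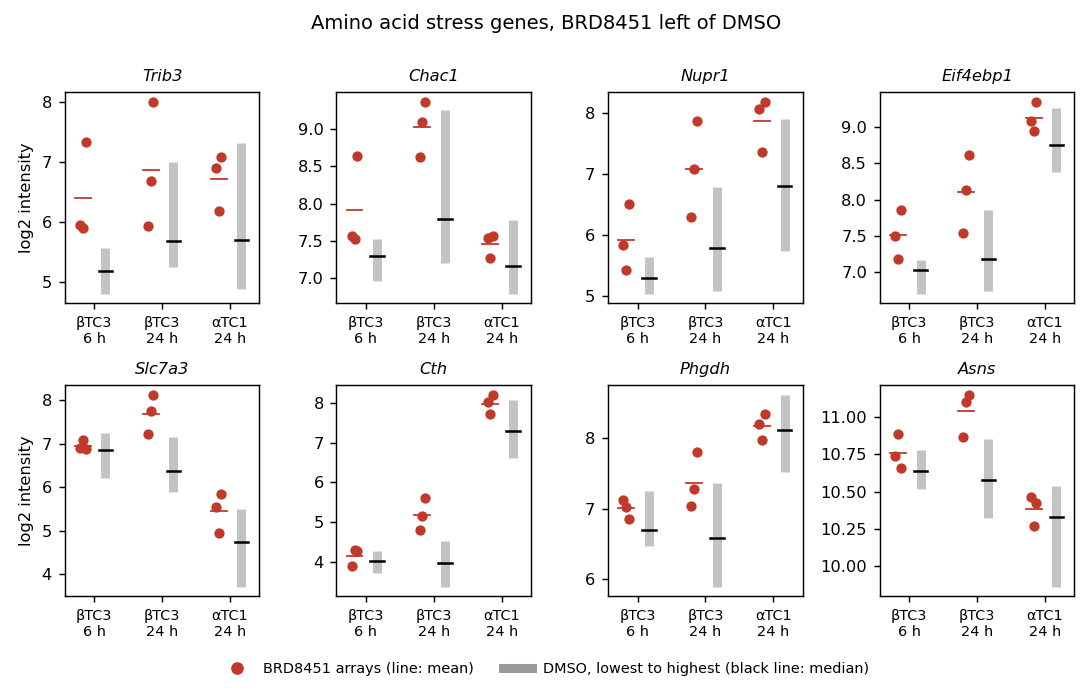
Log2 intensities of 8 amino acid stress and supply genes in βTC3 at 6 h, βTC3 at 24 h and αTC1 at 24 h; points are the 3 BRD8451 arrays with their mean as a line, and the grey bar to their right spans the DMSO arrays with the median in black. The Slc7a3 and Cth points of βTC3 at 24 h lie above the DMSO bar, and most αTC1 points lie within it.

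ATF4-type factors are known to bind an amino acid response element, here searched as the letters TGATGNAA or, on the other strand, TTNCATCA. RefSeq promoter windows (GRCm38.p6, 250 bases before to 50 after the start) were found for 7 of 11 stress and supply genes of the text, and 4 of the 7 held the letters: Trib3, Chac1, Nupr1 and Asns. Of 32851 windows of that length, 1304 (3.97%) held them on either strand. The windows of Psat1, Phgdh and Shmt2 did not hold them. The 4 stretches are shown because they hold the letters and their genes rose in βTC3. Each runs 5′ to 3′ on the gene's strand, with the matching letters in capitals.
Chac1, chr2:119350992-119351241, plus strand, match starting 193 bases before the start: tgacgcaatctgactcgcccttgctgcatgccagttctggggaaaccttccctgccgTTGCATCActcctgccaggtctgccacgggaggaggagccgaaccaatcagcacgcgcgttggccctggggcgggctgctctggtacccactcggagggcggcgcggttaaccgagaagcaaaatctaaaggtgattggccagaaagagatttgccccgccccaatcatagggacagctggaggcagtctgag
Nupr1, chr7:126625471-126625720, minus strand, match starting 110 bases before the start: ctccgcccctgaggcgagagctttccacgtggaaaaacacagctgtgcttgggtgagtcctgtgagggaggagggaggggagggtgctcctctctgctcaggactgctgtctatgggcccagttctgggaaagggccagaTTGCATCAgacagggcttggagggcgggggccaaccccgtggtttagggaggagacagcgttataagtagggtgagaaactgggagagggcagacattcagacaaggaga
Asns, chr6:7693210-7693459, minus strand, match starting 23 bases before the start: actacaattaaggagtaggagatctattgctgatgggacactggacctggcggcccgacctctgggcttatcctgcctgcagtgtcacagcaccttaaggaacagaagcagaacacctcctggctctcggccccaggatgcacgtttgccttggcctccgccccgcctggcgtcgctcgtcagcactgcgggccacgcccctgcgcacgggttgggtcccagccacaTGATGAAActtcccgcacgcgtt
Trib3, chr2:152344028-152344057, minus strand, match starting at base 15 after the start: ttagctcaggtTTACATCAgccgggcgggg
These matches describe the letters of the windows and no binding was measured.

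Enzymes that conjugate or reduce reactive molecules gave the 2 largest rises of βTC3 at 24 h, Ptgr1 and Gstt1. Ptgr1, a reductase of prostaglandins and reactive aldehydes, lay at 6.62, 6.71 and 6.56 with BRD8451, against 4.13 to 5.32 with DMSO (median 4.69). All 3 arrays lay far above the DMSO range, and the change of 1.52 ± 0.22 is 2.87-fold (adjusted p = 2.71e-06). The glutathione transferase gene Gstt1 lay at 7.13, 7.21 and 7.49, against 5.22 to 6.61 with DMSO (1.43 ± 0.18, adjusted p = 8.08e-08). Cryz, a quinone reductase, lay at 7.14, 7.42 and 7.49, against 5.28 to 6.45 with DMSO (1.04 ± 0.2, adjusted p = 0.000629). Cyb5r1, a cytochrome b5 reductase, lay at 8.25, 8.52 and 9.21, against 7.18 to 8.21 with DMSO (1.01 ± 0.11, adjusted p = 4.37e-10). For each of these 4 genes the groups did not overlap, which held for 1.99% of all genes at this time. All 4 calls held under each alternative setting tried, as did those of Rida, Rras, Insl6, Cd44, Ddah2, Cyp2j6, Pcp4 and Pttg1. Smaller rises came from the glutathione transferase Gstk1 (0.82, adjusted p = 0.0156), the epoxide hydrolase Ephx1 (0.74, adjusted p = 0.00942) and the haem oxygenase Hmox1 (0.66, adjusted p = 0.0163). Of 15 measured glutathione transferase genes 2 rose and 0 fell (median 0.09). Of 11 measured genes of the NRF2 oxidative stress program only Hmox1 was called (median -0.06). Among all genes 1.33% rose and 1.3% fell.

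Some enzymes of fatty acid oxidation also rose in βTC3, 6 of the 22 genes measured on a list of that process and of lipid droplets, put together after values were seen. Ech1, a dienoyl-CoA isomerase of fatty acid breakdown, lay at 7.46, 7.42 and 7.54 with BRD8451, against 6.11 to 7.04 with DMSO (0.82 ± 0.13, adjusted p = 1.27e-05). Cpt1a, which loads fatty acids onto carnitine for entry into mitochondria, lay at 6.63, 6.54 and 7.28, against 5.5 to 6.34 with DMSO (1.02 ± 0.15, adjusted p = 2.82e-06). Both sets of 3 arrays lay above their DMSO range. None of the 22 fell (median 0.18), where 1.33% of all genes rose and 1.3% fell. The other 4 rises were Nudt7 (0.70), Hsdl2 (0.61), Acads (0.57) and Acaa2 (0.47). With the arrays of BRD8451's batches alone none of the 6 was called. Plin2, the coat protein of lipid droplets, changed by 0.49 in βTC3 and was not called (adjusted p = 0.106).

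The remaining large rises in βTC3 came from genes of varied function. Pcp4, a calmodulin regulator gene, lay at 9.32, 9.05 and 9.02 with BRD8451, against 7.69 to 8.26 with DMSO (1.05 ± 0.11, adjusted p = 2.4e-10). Pttg1, which codes for securin, the inhibitor of chromatid separation, lay at 10.08, 9.9 and 9.69, against 8.2 to 9.03 with DMSO (1.02 ± 0.15, adjusted p = 2.71e-06). Cd44, the hyaluronan receptor, lay at 6.07, 6.05 and 5.82, against 3.6 to 5.01 with DMSO (1.17 ± 0.17, adjusted p = 1.96e-06). These 3 groups were separate from DMSO by a wide margin. The relaxin-family gene Insl6 lay at 5.75, 5.52 and 5.48, against 4.08 to 4.61 with DMSO, a change of 1.2. Tesc, a calcium-binding protein gene, lay at 6.45, 6.13 and 6.44, against 4.69 to 5.54 with DMSO (1.15 ± 0.27, adjusted p = 0.00669). The GTPase gene Rras changed by 1.25 and Ddah2, which breaks down methylated arginine, by 1.11. Of 7 measured antigen presentation genes, 2 rose, H2-T23 (0.84) and Psmb9 (0.42), with a list median of 0.25. The share of all genes that rose was 1.33%.

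Falls in βTC3 at 24 h were shallower than the rises and took in subunits of chromatin complexes. Brd8, a bromodomain subunit of the TIP60/NuA4 histone acetyltransferase, lay at 6.93, 7.08 and 7.0 with BRD8451, against 7.59 to 8.08 with DMSO (-0.76 ± 0.12, adjusted p = 2.83e-05). Mcrs1, a subunit of the INO80 nucleosome remodeller, lay at 6.97, 6.99 and 7.45, against 7.63 to 7.98 with DMSO (-0.63 ± 0.1, adjusted p = 3.03e-05). Actr8, an actin-related INO80 subunit, lay at 6.6, 7.01 and 7.19, against 7.2 to 7.64 with DMSO (-0.49 ± 0.087, adjusted p = 0.000176). In each of these the BRD8451 arrays were all below the DMSO range. Yeats4, a reader of acetylated histones in TIP60/NuA4, changed by -0.62 ± 0.11 (adjusted p = 0.000213) and Ino80c by -0.73 ± 0.18 (adjusted p = 0.0129). Of 11 measured INO80 subunit genes 5 fell and 0 rose (median -0.23), and of 13 of TIP60/NuA4, 5 fell and 0 rose (median -0.30). Among all genes 1.3% fell and 1.33% rose. Actl6a and Ruvbl1 are on both lists, which were put together after values were seen. In αTC1, Mcrs1 was the 1 gene of both lists that was called, where 0.263% of all genes were called. When only BRD8451 and DMSO arrays of BRD8451's batches were fitted, 3 genes fell in βTC3 in all, and Brd8, Mcrs1, Actr8, Yeats4 and Ino80c were not among them. The Actr8 and Ino80c calls were also lost without BRD8451 replicate 1.

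Mitochondrial and cell division genes were among the other falls. Ndufs8, a subunit of NADH dehydrogenase (complex I), lay at 9.53, 9.44 and 9.6 with BRD8451, against 9.83 to 10.25 with DMSO (-0.51 ± 0.087, adjusted p = 4.87e-05). On a list of 31 measured complex I genes, also put together after values were seen, 4 fell and 0 rose (median -0.13), the others being Ndufa5 (-0.36), Ndufb2 (-0.34) and Ndufb3 (-0.37). Of 19 measured mitosis genes 3 fell and 0 rose, and all 19 had changes below 0 (median -0.32, against -0.005 over all genes). The list does not hold the securin gene Pttg1, which rose in βTC3 as given above. The 3 that fell were Cdc20, the activator of the anaphase-promoting complex (-0.50, adjusted p = 0.048), Ccnb2 (-0.50) and Tpx2 (-0.45). The Cdc20 call was lost in 15 of 25 alternative settings. In αTC1 the 19 mitosis genes also had changes below 0 (median -0.13, against -0.019 over all genes), with 0 called, where 0.263% of all genes were called. Of 21 DNA replication genes, Gins1 alone was called in βTC3 (median -0.14). The share of all genes that fell in βTC3 was 1.3%. None of these complex I, mitosis and replication calls held with the arrays of BRD8451's batches alone.

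Metabolic and single genes completed the falls. Rbpms, an RNA-binding protein gene, fell most: it lay at 5.5, 5.67 and 5.96 with BRD8451, against 6.12 to 7.48 with DMSO (-1.05 ± 0.17, adjusted p = 1.58e-05), 2.07-fold lower. Ptrhd1 lay at 6.04, 6.63 and 6.77, against 7.13 to 7.76 with DMSO (-0.96 ± 0.14, adjusted p = 2.71e-06). Neither overlapped with DMSO. The glucose transporter Slc2a1 and the phosphofructokinase subunit Pfkl, 2 of 13 measured glycolysis genes, changed by -0.65 and -0.74. Of 16 measured cholesterol synthesis genes 2 fell, Idi1 (-0.61) and Cyp51 (-0.39), and 0 rose (median -0.27), where 1.3% of all genes fell. These 6 calls, too, were lost with the arrays of BRD8451's batches alone, and those of Slc2a1, Pfkl and Cyp51 also without BRD8451 replicate 2 or 3.

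In αTC1 at 24 h fewer genes were called, and the largest rises were of like size. Rsad2, an antiviral interferon-response gene, lay at 6.41, 6.44 and 6.76 with BRD8451, against 4.39 to 5.63 with DMSO (median 4.86), with a change of 1.68 ± 0.38, or 3.2-fold (adjusted p = 0.0251). The stress transcription factor gene Atf3 lay at 6.49, 6.22 and 6.49, against 4.14 to 6.09 with DMSO (1.4 ± 0.3, adjusted p = 0.0141). Csn3, a casein gene, lay at 7.1, 6.64 and 7.11, against 4.66 to 6.07 with DMSO (1.2 ± 0.2, adjusted p = 0.00057). The 3 BRD8451 arrays were above all DMSO arrays for each of these. Groups did not overlap in either direction for 1.48% of all genes. Plin2 lay at 9.14, 8.37 and 9.02, against 7.14 to 8.12 with DMSO (1.0 ± 0.18, adjusted p = 0.00113), also without overlap.

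Further αTC1 rises came from enzymes of glycogen and detoxification and from a lectin. Ppp1r3c, which ties protein phosphatase to glycogen, lay at 6.0, 5.73 and 6.47 with BRD8451, against 4.16 to 5.98 with DMSO (1.32 ± 0.29, adjusted p = 0.0182), with replicate 2 inside the DMSO range. The glutathione transferase Gsta4 lay at 4.78, 4.74 and 5.39, against 3.63 to 4.24 with DMSO (1.21 ± 0.29, adjusted p = 0.0353). Lgals1, the sugar-binding protein galectin, lay at 6.2, 6.07 and 6.77, against 4.46 to 5.87 with DMSO (1.2 ± 0.27, adjusted p = 0.0222). Smaller rises came from Cbs, the enzyme that makes cystathionine (0.80, adjusted p = 0.0295), and the CDK inhibitor gene Cdkn2b (0.62, adjusted p = 0.0325). Among the falls, the proteasome subunit gene Psmb10 lay at 5.7, 5.72 and 5.41, against 5.92 to 6.59 with DMSO (-0.78 ± 0.17, adjusted p = 0.0182). The calls of Rsad2, Atf3, Ppp1r3c, Gsta4, Lgals1 and Psmb10 were each lost when any 1 of the 3 BRD8451 arrays was left out, while that of Csn3 held under each alternative setting tried.

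A set of 12 genes was called in both lines at 24 h, all in the same direction in both. They make up 38.7% of the αTC1 calls, where 2.63% of all genes were called in βTC3. Of the βTC3 calls they are 3.87%, where 0.263% of all genes were called in αTC1. Of all genes 60.5% changed with the same sign in both lines. The 12 were Rsad2, Ech1, Gstt1, Rida, Cryz, Cyb5r1, Serpina1b, Ier3 and Flot1, which rose, and Nbn, Mcrs1 and Fbxl15, which fell. Rida, a deaminase that clears reactive enamines, lay at 5.89, 5.59 and 6.04 in αTC1 with BRD8451, against 4.47 to 5.4 with DMSO (0.92 ± 0.21, adjusted p = 0.0222). In βTC3 it lay at 6.02, 5.88 and 5.77 with BRD8451, against 4.12 to 4.73 with DMSO (1.26 ± 0.21, adjusted p = 3.03e-05). Nbn, a gene of DNA break repair, changed by -0.78 ± 0.14 in αTC1 (adjusted p = 0.00113) and by -0.68 ± 0.14 in βTC3 (adjusted p = 0.00114). Rsad2 in βTC3 lay at 5.2, 5.01 and 6.09 with BRD8451, against 3.71 to 4.99 with DMSO (1.22 ± 0.19, adjusted p = 1.55e-05). Ech1 changed by 1.11 ± 0.19 in αTC1 (adjusted p = 0.00057) and Gstt1 by 0.89 ± 0.16 (adjusted p = 0.00113). The αTC1 change of Mcrs1 was -0.5 ± 0.11 (adjusted p = 0.015). The Serpina1b rise in βTC3 (0.47, adjusted p = 0.0138) turned to -0.10 with no batch term. Across the 11807 genes the changes of the lines correlated at 0.42 at 24 h and at -0.21 at 6 h (Pearson; genes are not independent replicates).

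**Figure D3:**
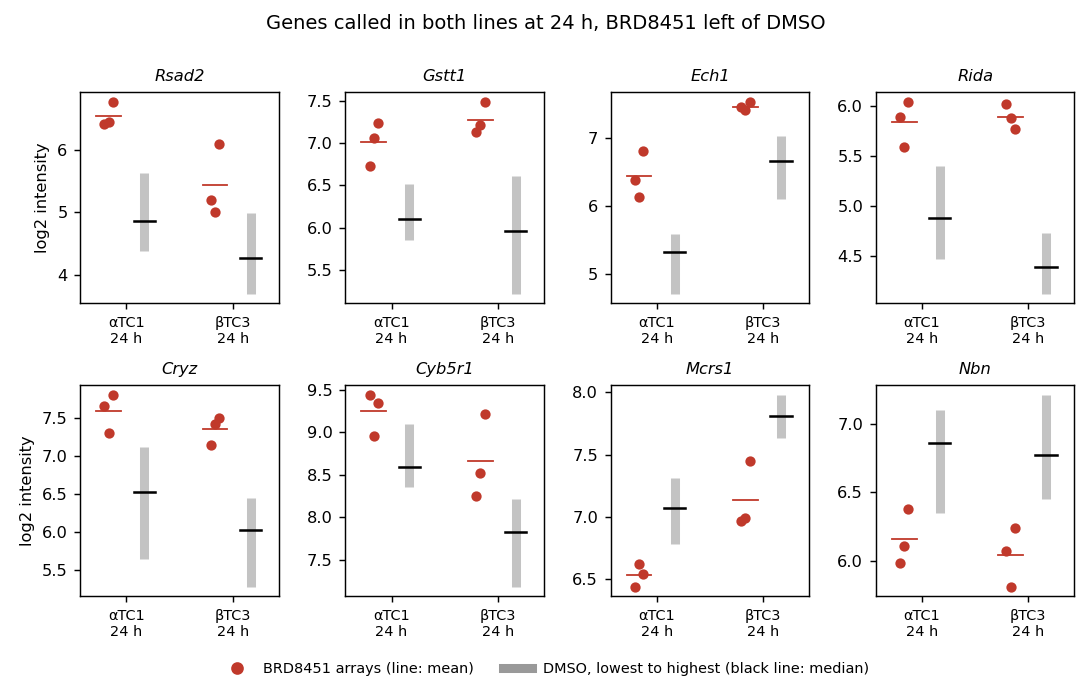
Log2 intensities at 24 h of 8 of the 12 genes called in both lines, αTC1 left and βTC3 right in each panel; points are the 3 BRD8451 arrays with their mean, and the grey bar to their right spans the DMSO arrays with the median in black. Rsad2, Gstt1, Ech1, Rida, Cryz and Cyb5r1 lie above DMSO, and Mcrs1 and Nbn below it, with Cyb5r1 and Nbn of αTC1 overlapping the bar.

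Whether the lines differed was tested directly in a joint fit, as the αTC1 change minus the βTC3 change. At 24 h 23 genes differed (0.195%). Ppp1r3c (1.44) and Gsta4 (1.19) were higher in αTC1, with βTC3 changes of -0.12 and 0.02. Tesc (-1.3), Insl6 (-1.16) and Cd44 (-1.12) went the other way, with αTC1 changes of -0.15, 0.04 and 0.05. For genes such as Trib3 (-0.09), Nupr1 (-0.34), Rsad2 (0.45) and Ptgr1 (-0.83) the difference between lines was not called, so a call in βTC3 alone does not show that they differ. At 6 h 1 gene differed (0.00847%), Inppl1, a lipid phosphatase gene, by 0.96. At 1 h limma called 0 (0%), with 294 at an unadjusted p under 0.05 (590 expected with nothing changed). Between 6 and 24 h the change of 41 genes differed in αTC1 (0.347%), among them Csn3 (1.4), Lgals1 (1.32) and Atf3 (1.27). In βTC3 27 genes differed (0.229%), among them Gstt1 (1.12), Ptgr1 (1.1) and Rbpms (-0.99).

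**Figure D4:**
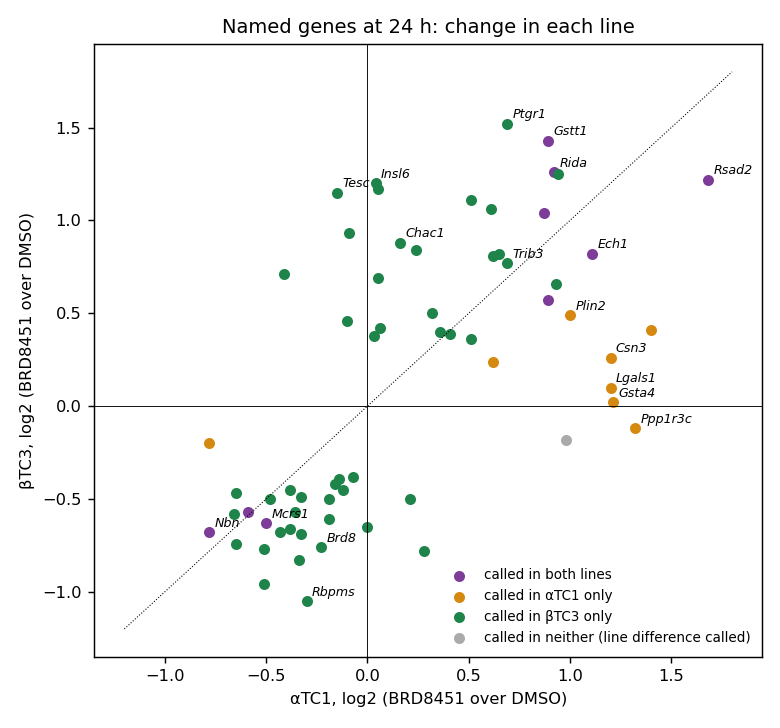
Log2 change (BRD8451 over DMSO) at 24 h of the genes named by rule, αTC1 on the horizontal and βTC3 on the vertical axis; each point is 1 gene, coloured by the line in which it was called, and the dotted line marks equal change. Tesc and Insl6 lie near 0 in αTC1, Ppp1r3c and Gsta4 near 0 in βTC3, and Rsad2 high in both.

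Few genes of islet identity were called. Of all genes, 0.263% were called in αTC1 and 2.63% in βTC3 at 24 h. Counts of 0 in lists as short as those below therefore say little about the lists. Gcg and Ins2 were called in neither line at 24 h (adjusted p = 0.996 in αTC1 and 0.457 in βTC3 for Gcg, 0.999 and 0.598 for Ins2). Of 9 measured beta cell markers 1 fell in βTC3, the transcription factor gene Nkx6-1, which lay at 7.06, 6.7 and 6.73 with BRD8451, against 6.84 to 7.7 with DMSO (-0.57 ± 0.14, adjusted p = 0.00975). Its arrays were low, but replicate 1 overlapped with DMSO. None of 5 alpha cell markers, 6 genes of other islet hormone cells and 15 of non-endocrine cells was called in either line. In bulk RNA, fewer cells of a type and less RNA per cell cannot be told apart. None of 7 measured histone deacetylase genes was called in either line (median 0.08 in αTC1, 0.11 in βTC3). Of the 38 gene lists, 32 held no called member in αTC1 and 17 held none in βTC3 at 24 h.

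The same dose and times allowed direct comparison of BRD8451 with BRD5298 and BRD9773, in 8 contrasts at 6 and 24 h adjusted over genes within each. The compounds differed most at 24 h. From BRD5298, BRD8451 differed in 2314 genes in αTC1 (19.6%), 1177 higher (9.97%) and 1137 lower (9.63%), and in 1608 in βTC3 (13.6%), 744 higher (6.3%) and 864 lower (7.32%). From BRD9773 it differed in 755 in αTC1 (6.39%), 229 higher (1.94%) and 526 lower (4.45%), and in 346 in βTC3 (2.93%), 133 higher (1.13%) and 213 lower (1.8%). At 6 h it differed from BRD5298 in 16 genes in αTC1 (0.136%), 3 higher (0.0254%) and 13 lower (0.11%), and in 7 in βTC3 (0.0593%), 5 higher (0.0423%) and 2 lower (0.0169%). It differed from BRD9773 in 37 genes in αTC1 (0.313%), 23 higher (0.195%) and 14 lower (0.119%), and in 253 in βTC3 (2.14%), 188 higher (1.59%) and 65 lower (0.551%). The direction of calls depended on scaling: with arrays centred on their medians, the split from BRD9773 at 24 h was 331 higher and 418 lower in αTC1 and 206 higher and 167 lower in βTC3, and at 6 h in βTC3 it was 71 higher and 111 lower. All 4 counts at 6 h were 0 when only the arrays compared were fitted.

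Trib3, Nupr1, Chac1 and Slc7a3 were each higher with BRD8451 at 24 h than with either compound in both lines, and all of these differences were called. In αTC1 at 24 h Trib3 lay at 6.91, 6.19 and 7.09 with BRD8451, against 4.9, 4.43 and 4.93 with BRD5298, a difference of 1.98 ± 0.33 (adjusted p = 5.61e-06). With BRD9773 it lay at 5.61, 5.29 and 4.76, a difference of 1.51 ± 0.33 (adjusted p = 0.00167). Against DMSO, Trib3 in αTC1 changed by 0.69 with BRD8451, by -1.29 with BRD5298 and by -0.82 with BRD9773, and both falls were called (adjusted p = 9.6e-05 and 0.0227), so the gap includes falls under the other compounds. In βTC3 at 24 h the Trib3 difference was 1.21 ± 0.26 from BRD5298 (adjusted p = 0.000656) and 1.45 ± 0.26 from BRD9773 (adjusted p = 0.000245). Nupr1 in βTC3 lay at 6.3, 7.08 and 7.86 with BRD8451, against 4.8, 5.62 and 5.58 with BRD5298 and 5.16, 5.8 and 4.95 with BRD9773, differences of 1.75 ± 0.3 and 1.78 ± 0.3. Chac1 differed from BRD5298 by 1.13 in αTC1 and 0.66 in βTC3, and from BRD9773 by 0.84 and 1.3. Slc7a3 differed from BRD5298 by 1.31 and 1.6, and from BRD9773 by 1.02 and 1.18. At 6 h in βTC3 Trib3 was already higher, by 1.06 than with BRD5298 (adjusted p = 0.00996) and by 1.04 than with BRD9773 (adjusted p = 0.00222).

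Several genes that BRD8451 raised lay higher still with the other compounds. In αTC1 at 24 h Rsad2 lay at 6.41, 6.44 and 6.76 with BRD8451, against 10.05, 10.23 and 10.15 with BRD5298 (-3.61 ± 0.46, adjusted p = 1.51e-08) and 8.37, 8.47 and 8.03 with BRD9773 (-1.75 ± 0.46, adjusted p = 0.011). In βTC3 the Rsad2 difference was -1.89 from BRD5298, and -0.74 from BRD9773, which was not called (95% interval -1.19 to -0.28, adjusted p = 0.0623). Gsta4 in αTC1 differed by -3.1 and -2.33, and Gstt1 by -1.34 and -1.33. Ptgr1 in βTC3 lay at 6.62, 6.71 and 6.56 with BRD8451, against 7.7, 7.57 and 7.07 with BRD5298 (-0.81, adjusted p = 0.0246) and 7.54, 7.41 and 7.74 with BRD9773 (-0.93, adjusted p = 0.0288). Pttg1 in βTC3 differed by -1.18 and -0.85.

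Further large differences between the compounds came from genes of other function. Sqor, a mitochondrial sulphide oxidase gene, lay at 4.04, 4.17 and 4.72 in αTC1 with BRD8451, against 7.76, 8.25 and 8.01 with BRD5298 (-3.69 ± 0.3, adjusted p = 7.77e-15) and 7.36, 7.79 and 7.07 with BRD9773. Its change against DMSO was -0.25 with BRD8451, 3.44 with BRD5298 and 2.84 with BRD9773. The potassium channel gene Kcnk2 lay at 7.57, 7.72 and 7.61 in αTC1 with BRD8451, against 5.3, 4.51 and 4.61 with BRD5298 (2.83 ± 0.34) and 6.63, 6.08 and 6.32 with BRD9773 (1.29 ± 0.34). In βTC3 Tnfaip8 differed by -2.37 and -2.17 and Abhd3 by -2.47 and -1.86. Cdc20 in βTC3 lay at 8.84, 9.05 and 9.25 with BRD8451, against 7.23, 7.39 and 7.47 with BRD5298 (1.68 ± 0.18, adjusted p = 1.07e-10), and differed from BRD9773 by 0.86 ± 0.18. Of 19 mitosis genes in βTC3, 16 were higher with BRD8451 than with BRD5298 (median difference 0.93) and 5 than with BRD9773 (median 0.40). Of all genes, 6.3% and 1.13% were higher in the same contrasts.

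For some genes no difference between compounds was called, and the intervals bound its size. Ech1 in βTC3 differed by 0.11 from BRD5298 (95% interval -0.2 to 0.41) and by 0.02 from BRD9773 (-0.28 to 0.32). Plin2 in αTC1 differed by -0.08 from BRD9773 (-0.51 to 0.36). Gcg in αTC1 differed by -0.19 from BRD5298 (-0.46 to 0.08), and Asns in βTC3 by 0.07 (-0.14 to 0.28). The changes of the 3 compounds against DMSO share the DMSO arrays.

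**Figure D5:**
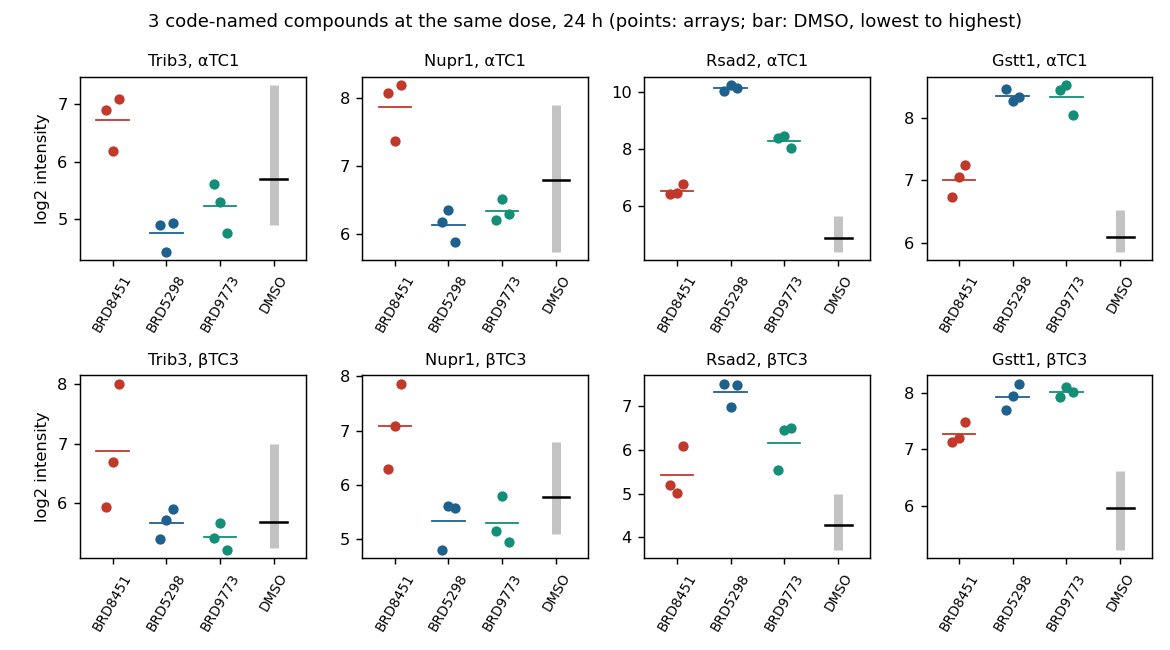
Log2 intensities at 24 h of Trib3, Nupr1, Rsad2 and Gstt1 with BRD8451, BRD5298, BRD9773 and DMSO, αTC1 above and βTC3 below; points are arrays (3 per compound) with their mean as a line, and the grey bar spans the DMSO arrays with the median in black. Among the 3 compounds Trib3 and Nupr1 have the highest mean with BRD8451, and Rsad2 and Gstt1 with BRD5298 or BRD9773.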

How the data were processed

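The deposited table holds an intensity for each probe set on each array, for which RMA is named per the submitters' processing notes; its version and any batch correction are not given in the sources used here. The intensities (3.962 to 13635.1) are linear, so log2 was taken here. Of 22716 probe sets, 18003 carried 1 gene symbol, 287 several and 4426 none, the last with 90 controls among them. Each of 11807 genes takes the values of the probe set that has its highest mean (4150 genes had several). Of the called genes listed or named, 7 in αTC1 and 31 in βTC3 had several probe sets. Among them Bak1 in βTC3 alone had one of opposite sign beyond a log2 change of 0.1. Sizes differed more: for 3 of the 7 and 14 of the 31, another probe set had a much smaller change than the one used.

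Line, compound, dose, time, batch (7, numbered 4 to 10) and array plate (9) came from the titles. The 3 BRD8451 arrays of a group lie in different batches. Tests used limma 3.58.1 in R 4.3.3 (the package data.table is at version 1.17.8), moderated by empirical Bayes. A fit was made per line and time, with all its arrays and batch as a fixed term. Differences between lines and times used a joint fit. Adjustment of p-values was by Benjamini-Hochberg, over the genes of each comparison. Nothing says that replicates came from separate cultures, so p-values measure only the spread between arrays, which may be technical.

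Named genes are, per comparison with DMSO, the 10 largest changes in each direction among called genes whose arrays do not overlap with DMSO, up to 5 called members of each of 38 lists, the 5 largest called in each direction for other contrasts, and a set of always named genes. The text names a part of these, and other named genes, with 5 further lists and the genes whose promoters were searched, were chosen after their values were seen. The members and lists were chosen with earlier results of these data known.

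Tested on simulated data with 200 changed genes, the code recovered 60% of changes of 0.5 and 98% of changes of 1 (log2) for αTC1 at 24 h, and 67% and 99% for βTC3 at 24 h, with 11 and 10 false calls. At 6 h it recovered 77% and 98% for αTC1, and 66% and 100% for βTC3. For the difference between lines at 24 h it recovered 36% and 83%. With nothing changed it made 0 calls. The simulated noise was drawn for each gene on its own, with a batch shift but no plate effect. For the difference between lines it had no batch shift either. Real arrays can share shifts across genes, so these rates do not give the error rates of the real arrays. Whether plate shifted the αTC1 arrays at 6 h was not tested. Alternatives were no batch term, only the arrays compared, only the batches that hold BRD8451, plate as a random block, median centring, a second quantile normalization, the mean of all probe sets, only genes at or above the median level, 1 adjustment over 6 comparisons, a replicate block and arrays left out in turn. DMSO arrays and arrays of the other compounds were left out in turn, as were arrays together with the plate block, by a choice made after the data were seen. Insulin gene Ins1 and some other markers are not analysed here.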

Additional observations from a re-analysis of the deposited data

Results flagged for a closer look

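The response to BRD8451 differed between the lines, or between 6 and 24 h, for the genes given here, each by limma's test of the difference itself in a joint fit. Values are differences of log2 changes. Most of these calls rest on single replicates or on the batch term.

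At 24 h, αTC1 minus βTC3, the change was higher in αTC1 for Ppp1r3c (1.44), Gsta4 (1.19), the macrophage and lysosome marker gene Cd68 (1.16), Lgals1 (1.1) and the actin-binding protein gene Avil (1.06). It was lower in αTC1 for Tesc (-1.3), Insl6 (-1.16), the autophagy gene Wipi1 (-1.13), Cd44 (-1.12) and the calmodulin-dependent kinase gene Camk1g (-1.02). Of these 10 calls, 6 were lost without replicate 1, 6 without replicate 2, 4 without replicate 3 and 6 with no batch term, while those of Ppp1r3c and Tesc held in all 6 settings tried. At 6 h it was higher in αTC1 for Inppl1 (0.96, adjusted p = 0.0394), a call lost without replicate 1 or 2, with no batch term and with only the arrays compared.

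In αTC1, the change at 24 h exceeded that at 6 h for Csn3 (1.4), the polyamine acetyltransferase gene Sat1 (1.36), Lgals1 (1.32), Cd68 (1.29) and Atf3 (1.27). It was lower at 24 h for the splicing factor gene Sf3a2 (-1.07), the histone methyltransferase gene Kmt5b (-1.02), Borcs7 (-1.01), the ephrin gene Efnb1 (-0.96) and C1ql3 (-0.95). Of these 10 calls, 8 were lost without replicate 1, 9 without replicate 2, 1 without replicate 3 and all 10 with no batch term. BRD8451 replicates 1 and 2 at 6 h shared a plate and correlated less with DMSO than replicate 3, and the part of this in these values was not tested.

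In βTC3, the change at 24 h exceeded that at 6 h for Gstt1 (1.12), Ptgr1 (1.1), Insl6 (1.05), Tesc (0.99) and Pcp4 (0.97). It was lower at 24 h for the methionine sulphoxide reductase gene Msra (-1.02), Ptrhd1 (-1.01), Rbpms (-0.99), Wbp2 (-0.83) and Nbn (-0.74). Of these calls, 7 were lost without replicate 1, all 10 without replicate 2, 7 without replicate 3 and 6 with no batch term. The Actb measure of RNA length shifted in opposite directions with BRD8451 at 6 and 24 h in βTC3, and its part in these differences was not tested.

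A single array stood apart in RNA length: in βTC3 with DMSO at 6 h, the Actb 3′ minus 5′ log2 difference was 3.57 in array 9, with the nearest other array at 4.56. That gap is 0.55 of the group's range. Chance marks about 1 in 20 values in this way, and 15 values of this group were tested, so 1 such mark is not unusual. No other BRD8451 or DMSO group was of a size that the rule covers, so outlying arrays were not looked for in those.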

How the results depend on the processing

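Counts of called genes depended on which arrays shared the fit and on the batch term, and the cause was not tested. With no batch term 17 genes were called in αTC1 and 180 in βTC3 at 24 h, and 1 in βTC3 at 6 h. With only BRD8451 and DMSO arrays the counts were 104, 132 and 0, and with only the batches that hold BRD8451 they were 88, 16 and 0. With plate as a random block αTC1 at 24 h had 66. The mean of all probe sets gave 1 in βTC3 at 6 h. With 1 adjustment over the 6 comparisons the counts were 1 in αTC1 at 1 h, 8 in αTC1 at 6 h, 1 in βTC3 at 1 h and 149 in βTC3 at 24 h. With 1 BRD8451 array left out they ran from 0 to 544 in αTC1 at 6 h, 3 to 9 in αTC1 at 24 h, 0 to 1 in βTC3 at 1 h, 0 to 2 in βTC3 at 6 h and 151 to 204 in βTC3 at 24 h. With 1 DMSO array left out they ran from 0 to 116, 20 to 36, 0 to 0, 1 to 2 and 231 to 311 in the same order. At 1 h in αTC1 no array left out gave a call. For αTC1 at 6 h, leaving out replicate 3 or DMSO replicate 4 with plate as a random block gave 2 and 0.

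Against BRD5298, with no batch term the counts were 4 in αTC1 at 6 h, 0 in βTC3 at 6 h and 806 in βTC3 at 24 h. At 6 h both were 0 with only the arrays compared or only BRD8451's batches. In αTC1 at 6 h the plate block gave 67 and the mean of probe sets 25, and in βTC3 at 6 h centring gave 3. Against BRD9773, with no batch term the counts were 3 and 431 in αTC1 and 26 and 91 in βTC3 at 6 and 24 h. With only the arrays compared, or only BRD8451's batches, both lines had 0 at 6 h and αTC1 had 2075 at 24 h. The plate block gave 107 in αTC1 at 6 h, and 166 and 586 in βTC3 at 6 and 24 h. Another quantile normalization gave 24 in αTC1 and 165 in βTC3 at 6 h. In βTC3 at 6 h, of the calls against BRD9773, 71 were higher and 111 lower after centring, and 62 of 165 were lower after quantile normalization, against 188 higher and 65 lower of 253 as reported. In αTC1 at 6 h centring gave 15 higher and 15 lower against BRD9773 (23 and 14 as reported), and quantile normalization 0 higher and 13 lower against BRD5298 (3 and 13 as reported). In βTC3 at 6 h against BRD5298, centring gave 1 higher and 2 lower and quantile normalization 3 higher and 4 lower (5 and 2 as reported).

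With 1 array left out, the counts against BRD5298 ran from 5 to 22 in αTC1 at 6 h, 1799 to 2340 in αTC1 at 24 h, 0 to 70 in βTC3 at 6 h and 1019 to 1349 in βTC3 at 24 h. The 70 came without BRD5298 replicate 3 and the 1019 without BRD5298 replicate 1. Against BRD9773 they ran from 2 to 42, 350 to 577, 53 to 317 and 138 to 294 in the same order, the lowest without BRD8451 replicate 2, BRD9773 replicate 2, BRD9773 replicate 1 and BRD9773 replicate 3. A replicate block, possible only between compounds since DMSO titles hold no number, gave 20 and 2281 in αTC1 and 10 and 1674 in βTC3 against BRD5298 at 6 and 24 h, and 37, 734, 234 and 360 against BRD9773, and moved no count by over 1.5 times.

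For the differences between lines, no batch term gave 0 at 6 h and 9 at 24 h, and only the arrays compared gave 0 at 6 h. With 1 BRD8451 replicate number left out of every group they ran from 0 to 9 at 6 h and stayed at 11 at 24 h. For the differences between times, no batch term gave 2 in αTC1 and 9 in βTC3, and centring 16 in βTC3 (10 higher, 6 lower, against 10 and 17 as reported). In αTC1 centring gave 37 higher and 8 lower, against 27 and 14 as reported. With 1 replicate number left out of every BRD8451 group they ran from 4 to 52 in αTC1 and from 0 to 14 in βTC3.

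Of 10140 values of single genes under alternatives, 9362 stayed on their side of the threshold or, for within-batch differences, within 1 SD. Another 704 lost the call, 35 gained one and 38 moved by over 1 SD. Direction was compared for called genes only. Many of the values belong to genes that were not called, so the 9362 does not measure how firm the calls are. Serpina1b in βTC3 at 24 h reversed, at -0.10 with no batch term.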

Other observations

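Some called changes of βTC3 at 24 h fall outside the gene groups above and were picked after their values were seen. Egr1, an immediate early transcription factor gene, changed by 0.81, and Cyp2j6, a cytochrome P450 gene, by 0.93. Kmt5b, a histone methyltransferase gene, changed by -0.68, Galc, the enzyme that breaks down galactosylceramide, by -0.83, and Pmf1, a kinetochore gene, by -0.77. All are BRD8451 minus DMSO on the log2 scale.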
